A study of Arabidopsis thaliana with 8 samples.

Results

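The genotype difference after SA treatment was followed across the whole transcriptome by setting the 2 arrays labelled npr1-1 SA against the 2 arrays labelled Col-0 SA, which are 4 of the 8 arrays of the series. The npr1-1 group was the *npr1-1* mutant of *Arabidopsis thaliana* given 2 mM SA for 24 h, and the Col-0 group was wild-type Col-0 given the same treatment. The remaining 4 arrays were npr1-1 and Col-0 seedlings kept in water for 24 h. All seedlings were 2 weeks old, were grown on MS medium under long days, and had their medium replaced by SA or water. RNA came from complete seedlings, labelled as 2 biological replicates per group, and was read on the ATH1 chip, where a probe set reads 1 transcript or several similar ones. Values are the deposited log2 levels. A difference is always npr1-1 minus Col-0, so that a difference of 1 is a 2-fold change.

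SA is the hormone that plants accumulate when attacked by biotrophic pathogens, and it switches on local defense and systemic acquired resistance (SAR). NPR1 senses SA and acts in the nucleus as a coactivator with TGA transcription factors, which lack a strong activation domain of their own. The *npr1-1* allele is a point mutation that disables the protein, and plants carrying it are poor at inducing defense genes and at SAR. Because the transcript is still made, its level would not check the labels. NPR1 and PR1 are not analysed here.

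Replicate arrays correlated at r = 0.994 to 0.996 across probe sets, the npr1-1 SA arrays with the Col-0 SA arrays at 0.922 to 0.925, and arrays of all other pairs of groups at 0.955 to 0.966. The SA treatment labels of the mutant arrays need care. Several genes that were higher on Col-0 SA than on Col-0 water arrays were high on the arrays labelled npr1-1 water and low on those labelled npr1-1 SA, as the values of UGT76B1 and AT5G03350 show beside the results. All arrays are named by their labels, no label was changed, and water values are given beside many of the genes described. The RNA controls added before labelling also moved with the groups, the dap control reading 5.63 and 5.21 on the npr1-1 SA arrays against 6.90 and 6.82 on the Col-0 SA arrays, and the thr control 5.13 and 4.84 against 6.37 and 6.17. On the water arrays dap was at 5.42 and 5.53 in npr1-1 and at 5.26 and 5.71 in Col-0, and thr at 4.80 and 4.80 in npr1-1 and at 4.87 and 5.30 in Col-0, so the Col-0 SA arrays alone stood apart in these controls, as they did for a number of the genes and lists below. The bioB control, added at hybridization, was at 5.04 and 5.06 on npr1-1 SA arrays and at 5.17 and 4.94 on Col-0 SA arrays. The 3' probe set of GAPDH exceeded its 5' probe set by 1.50 and 0.79 on npr1-1 SA arrays and by 1.46 and 0.88 on Col-0 SA arrays. The excess was larger for actin, at 5.41 and 4.62 on npr1-1 SA arrays and at 5.60 and 4.40 on Col-0 SA arrays. For ubiquitin it was 1.87 and 1.42 on npr1-1 SA arrays and 1.55 and 1.38 on Col-0 SA arrays. The part of the control differences in the results was not tested.

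A gene counts as measured where a probe set carries its symbol and no other in the annotation used. The 8730 probe sets with no symbol and the 503 with several were tested but not assigned to genes, so the other members of a list may be on the chip under probe sets not named here. Of the tissue markers, the photosynthesis genes were bright, with RCA (Rubisco activase) at 10.67 and 10.80 on npr1-1 SA arrays and at 9.44 and 9.55 on Col-0 SA arrays. The root hair expansin genes EXPA7 and EXPA18, the 2 root markers measured of 20, lay between 0.40 and 1.07 on these 4 arrays, at the dim end of the scale, although complete seedlings were labelled. None of the 2 root, 3 epidermis and guard cell or 3 flower, pollen and seed markers that were measured passed the test in limma, and none had an unadjusted p under 0.05 (0 of 8). Over all 22746 probe sets 39.3% passed, and 10337 had an unadjusted p under 0.05. All 8 markers had both SA group means under 2, a range where 14.2% of probe sets were called. They could show little of a shift in tissues, which was not tested. No vasculature marker was matched by name, and these markers were not analysed here. In these bulk samples, fewer cells of a type and less RNA per cell cannot be told apart.

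The genotypes differed over a large part of the transcriptome under SA. Of the 22746 probe sets tested, 8945 (39.3%) passed an adjusted p of 0.05 in limma, of which 4757 were higher and 4188 lower on the npr1-1 SA arrays. After centring of each array on its median, the split was 4008 higher and 5897 lower, and the median difference moved from −0.02 to −0.15. A difference of at least 1 was reached by 2153 higher and 1662 lower probe sets, and one of at least 4 by 8 higher and 47 lower. The falls thus reached further than the rises, down to −8.45 against 5.08 at most. Among probe sets with a group mean of 2 or more under SA, 68.1% were called, and among the dimmer ones 14.2%. Gene names came from probe sets with 1 symbol in the annotation, which covered 13350 genes. Of these genes 2553 (19.1%) were higher and 2131 (16.0%) lower on the npr1-1 SA arrays, and these shares are the background for the gene groups that follow. They take in bright and dim genes alike, so lists of bright genes are to be read beside the 68.1% called in either direction. The gene lists were written with earlier results of these data known or after the values were seen, so their counts are a description. Of the 55 probe sets that differed by at least 4, 35 had no single symbol and are not named, including 7 that fell by more than any named gene.

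The 12 largest falls among named genes included genes for enzymes that conjugate or oxidise SA, auxin and jasmonic acid, and a glutaredoxin that links SA to jasmonate signaling. The locus AT3G11340 (UGT76B1), whose enzyme glucosylates SA and isoleucic acid, had levels of 3.01 and 2.92 on npr1-1 SA arrays, against 9.57 and 9.75 on Col-0 SA arrays. It was 104-fold lower on the npr1-1 SA arrays (difference −6.70 ± 0.124, SE, n = 2 each, limma adjusted p = 2.46e-11). Its levels in water were 8.88 and 8.92 in npr1-1 and 4.71 and 4.87 in Col-0, so that by labels the mutant was the higher genotype in water. AT5G03350, a legume lectin-like gene, repeated this order. It stood at 3.05 and 2.76 on npr1-1 SA arrays against 9.61 and 9.45 on Col-0 SA arrays (difference −6.63 ± 0.152, SE, adjusted p = 1.40e-10 in limma), and at 10.23 and 10.18 in npr1-1 water against 4.47 and 4.10 in Col-0 water. AT3G28510, an AAA-type ATPase, was near the bottom of the scale at 0.07 and 0.40 on npr1-1 SA arrays, against 6.43 and 6.16 on Col-0 SA arrays. Its water levels of 6.94 and 7.05 in npr1-1 were likewise above the 0.66 and 1.20 in Col-0. AT1G19960 was at 0.87 and 0.52 on npr1-1 SA arrays and at 5.37 and 4.97 on Col-0 SA arrays, with water levels of 5.52 and 5.73 in npr1-1 and 1.11 and 0.94 in Col-0. These 4 genes thus had 2 bright groups, labelled Col-0 SA and npr1-1 water, and 2 dim ones.

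A second set was bright only on the Col-0 SA arrays. AT2G30660, of the crotonase enzyme family, was at 0.76 and 0.60 on npr1-1 SA arrays against 5.74 and 5.92 on Col-0 SA arrays, and between 1.02 and 1.27 on the 4 water arrays (difference under SA −5.15 ± 0.139, SE, limma adjusted p = 5.72e-10). AT3G29970 was at 0.37 and 0.39 on npr1-1 SA arrays against 5.77 and 5.08 on Col-0 SA arrays, and between 0.34 and 0.53 in water. For neither gene did the genotypes differ in water by more than 0.03.

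The remaining large falls differed among themselves in their water levels. GRX480 at AT1G28480, a glutaredoxin partner of TGA factors that represses jasmonate genes, was at 3.06 and 3.05 on npr1-1 SA arrays against 8.02 and 7.93 on Col-0 SA arrays, a 30.3-fold lower level (adjusted p = 3.11e-10 in limma). In water it was at 7.85 and 7.97 in npr1-1 and at 6.87 and 6.67 in Col-0, so the npr1-1 SA arrays were the only dim group. GH3.3, which conjugates auxin to amino acids, was at 3.01 and 2.81 on npr1-1 SA arrays against 7.69 and 7.66 on Col-0 SA arrays, and at 5.08 and 5.27 in npr1-1 water against 3.37 and 3.05 in Col-0 water. UGT73D1, another glycosyltransferase, was at 2.24 and 2.07 on npr1-1 SA arrays against 6.99 and 7.06 on Col-0 SA arrays, and AT3G13950, an ankyrin-repeat gene, at 1.13 and 0.96 against 6.11 and 6.02. The cell wall invertase family gene cwINV6 was at 2.47 and 2.10 on npr1-1 SA arrays against 6.71 and 6.88 on Col-0 SA arrays, while its 4 water arrays lay between 5.30 and 5.49. JRG21 (AT3G55970), a jasmonate-regulated dioxygenase that oxidises jasmonic acid, was the exception among the 12 in that the deficit was called in both treatments at a similar size and the interaction, at 0.29, was not called. It was at 2.69 and 2.56 on npr1-1 SA arrays against 7.54 and 7.41 on Col-0 SA arrays, and at 0.96 and 1.84 in npr1-1 water against 6.54 and 6.54 in Col-0 water. For each of the 12 genes both npr1-1 SA arrays lay below both Col-0 SA arrays. The genes were picked by the size of this fall, so the order is no separate result.

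**Figure D1:**
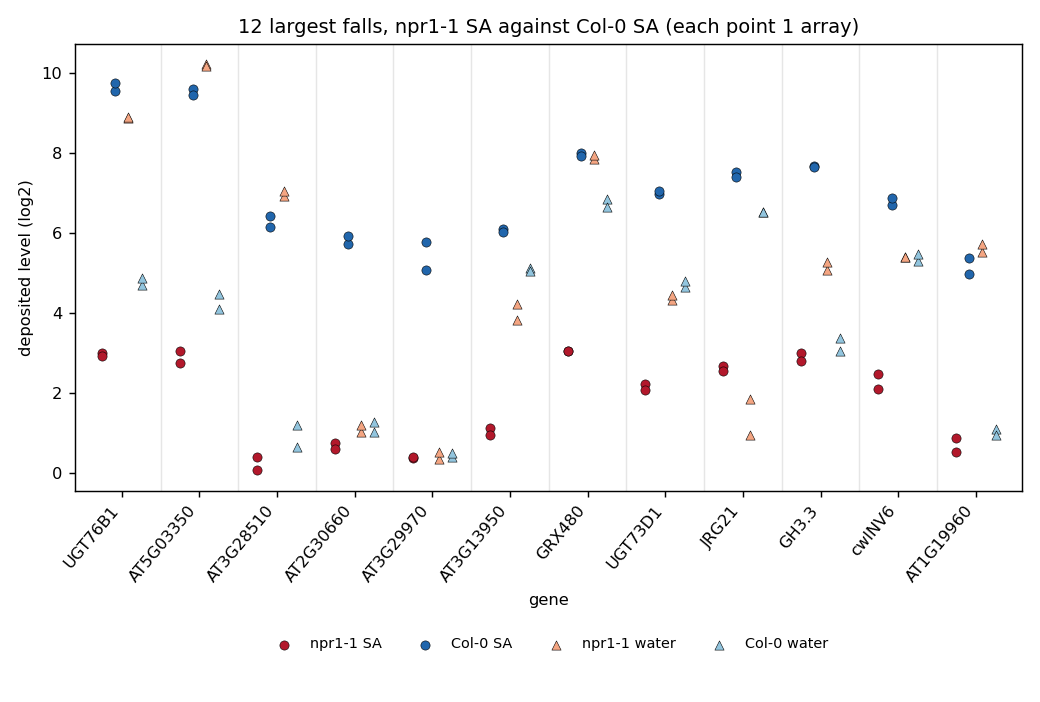
Deposited log2 levels of the 12 named genes with the largest falls, each point being 1 array of npr1-1 SA, Col-0 SA, npr1-1 water or Col-0 water. UGT76B1 is at 3.01 and 2.92 on npr1-1 SA arrays against 9.57 and 9.75 on Col-0 SA arrays, and its npr1-1 water arrays, at 8.88 and 8.92, stand near the Col-0 SA arrays, whereas AT2G30660 is bright only on the Col-0 SA arrays.

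The 12 largest rises were smaller than the 12 largest falls, apart from the first of them, and included several genes for enzymes of the lipase and wall-remodeling families. AT1G29660, of the GDSL family of lipases and esterases, was at 5.91 and 6.19 on npr1-1 SA arrays against 1.40 and 1.42 on Col-0 SA arrays, a 24.9-fold higher level (difference 4.64 ± 0.162, SE, n = 2 each, limma adjusted p = 3.16e-09). In water its levels were 4.87 and 4.40 in npr1-1 and 5.10 and 4.96 in Col-0, so the Col-0 SA arrays stood apart from the other 3 groups. The 12 held other GDSL genes. AT3G16370 was at 7.61 and 7.60 on npr1-1 SA arrays against 3.98 and 3.75 on Col-0 SA arrays, and AT3G48460 at 4.36 and 4.21 against 0.83 and 1.09. XTH16, a xyloglucan endotransglucosylase/hydrolase that remodels the wall, was at 4.90 and 4.70 on npr1-1 SA arrays against 1.17 and 1.18 on Col-0 SA arrays, and at 3.37 and 3.61 in npr1-1 water against 4.01 and 3.92 in Col-0 water. AT2G10940, a lipid-transfer-type protein, was at 6.54 and 6.47 on npr1-1 SA arrays against 2.87 and 2.91 on Col-0 SA arrays. AT1G09310, of the DUF538 family, was at 8.34 and 8.39 against 4.72 and 4.67 in the same order. These genes shared the pattern of AT1G29660, with the lowest levels on the Col-0 SA arrays and the highest on the npr1-1 SA arrays.

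AT5G55220, a trigger factor-type chaperone, was at 4.80 and 4.72 on npr1-1 SA arrays against 1.72 and 1.39 on Col-0 SA arrays, and AT3G50560, a short-chain dehydrogenase family gene, at 6.24 and 6.11 against 3.10 and 2.89. AT5G12050 and AT5G14410 rose by 3.25 and 3.12. For AT5G55620 and QQS the mutant was also the higher genotype in water. QQS, an orphan gene known for shifting the balance of starch and protein, was at 3.72 and 4.00 on npr1-1 SA arrays against 0.59 and 0.88 on Col-0 SA arrays, and at 2.90 and 2.79 in npr1-1 water against 0.91 and 0.93 in Col-0 water. AT5G55620 was at 5.82 and 5.72 on npr1-1 SA arrays against 1.90 and 2.39 on Col-0 SA arrays, and at 5.43 and 5.31 in npr1-1 water against 3.81 and 3.64 in Col-0 water. On none of the 12 genes did the 2 groups overlap under SA, which is no separate result in genes picked by the size of the rise.

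**Figure D2:**
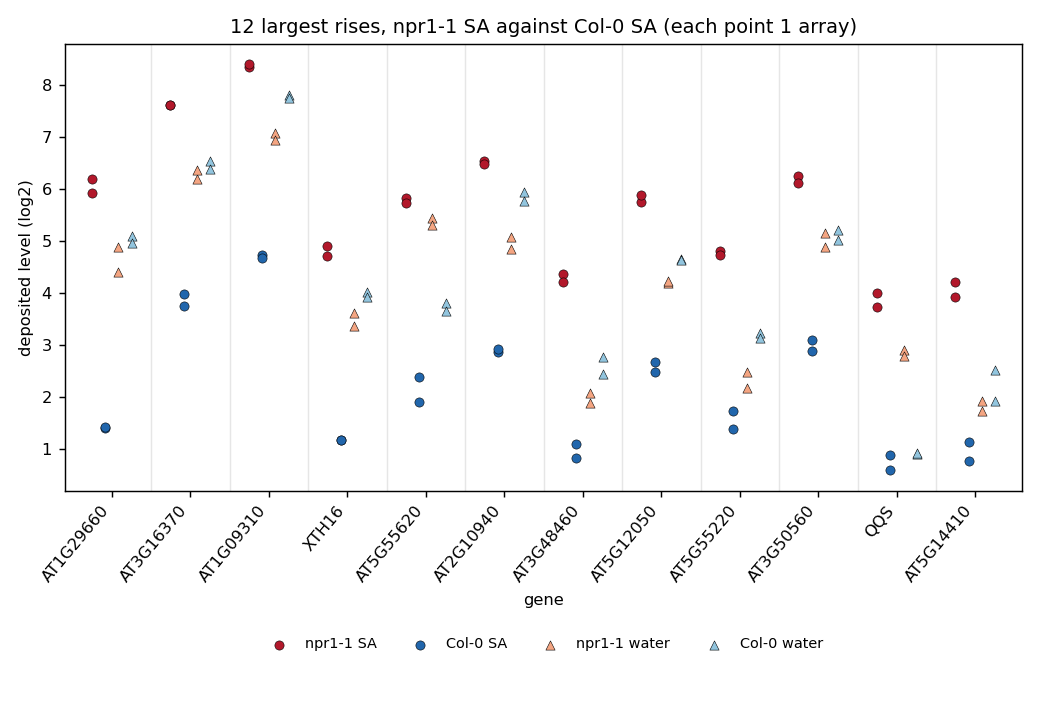
Deposited log2 levels of the 12 named genes with the largest rises, each point being 1 array of npr1-1 SA, Col-0 SA, npr1-1 water or Col-0 water. AT1G29660 is at 5.91 and 6.19 on npr1-1 SA arrays against 1.40 and 1.42 on Col-0 SA arrays, and for QQS the npr1-1 water arrays, at 2.90 and 2.79, also lie above the Col-0 water arrays, at 0.91 and 0.93.

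Among 7 measured genes of SA signaling and SAR, 5 were lower on the npr1-1 SA arrays and none was higher, with a median difference of −0.54 where the median over all genes was −0.02. Besides UGT76B1 and GRX480, AT5G52810, which makes the SAR signal precursor pipecolic acid, was at 0.72 and 0.64 on npr1-1 SA arrays against 3.85 and 3.57 on Col-0 SA arrays (adjusted p = 1.63e-08 in limma). In water it was at 5.10 and 5.03 in npr1-1 and at 3.17 and 2.94 in Col-0. WES1 (GH3.5), which conjugates amino acids to SA and auxin, fell by 0.54 under SA, less than in water, where the difference was −1.67. The SA glucosyltransferase gene UGT74F1 was dim throughout, at 0.39 and 0.36 on npr1-1 SA arrays against 0.67 and 0.88 on Col-0 SA arrays. The EDS1 partner SAG101 and the SA methyltransferase gene BSMT1 did not pass the test, with differences of 0.05 and −0.06.

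Of the 6 measured WRKY factors, which bind W-box elements in defense promoters, 4 were lower and none was higher. WRKY53 was at 4.91 and 4.96 on npr1-1 SA arrays against 6.71 and 6.83 on Col-0 SA arrays, and WRKY6 at 4.23 and 4.37 against 6.09 and 6.12, whereas WRKY22 and WRKY47 fell by 0.75 and 0.37. In water the differences were 0.05 for WRKY53, −1.13 for WRKY6, −1.43 for WRKY22 and −1.22 for WRKY47. For WRKY22 and WRKY47 the deficit was thus larger in water than under SA. The call of WRKY47 was lost in several alternatives, with an adjusted p of 0.0609 in limma under the replicate block, which left 3 of the 6 lower. No TGA factor was among the named genes, and these factors were not analysed here. Receptor-like kinases and proteins of defense moved further. Of 9 measured members 8 were lower, none was higher, and the median difference was −1.79. Several of them are neighbouring leucine-rich repeat kinase genes of chromosome 1 with similar sequences, so that signal may be shared between them. AT1G51860 was at 2.68 and 3.27 on npr1-1 SA arrays against 5.91 and 5.91 on Col-0 SA arrays, and AT1G51890 at 4.18 and 3.94 against 6.86 and 7.02. The immune receptor gene EFR fell by 1.08, as did BIK1, the kinase that relays its signal. In water the difference was 0.25 for EFR, which was not called, and −1.24 for BIK1, whose interaction was not called. Of the 9 members, 5 were lower in water and none was higher, beside 10.7% lower and 13.1% higher over all genes. FER, a receptor kinase for RALF peptides, was the member that did not pass, at 6.34 and 6.52 on npr1-1 SA arrays and 6.01 and 6.38 on Col-0 SA arrays.

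Secreted defense proteins split. Of 14 measured members 6 were higher and 4 lower. CHI (AT2G43570), a chitinase family gene, was at 2.86 and 2.16 on npr1-1 SA arrays against 6.50 and 6.65 on Col-0 SA arrays. ECS1, a cell wall protein, was at 6.90 and 6.95 against 10.79 and 10.67 in the same order, and in water at 11.40 and 11.32 in npr1-1 against 8.62 and 8.42 in Col-0. In the other direction, the aspartyl protease gene AT1G09750 was at 4.17 and 4.07 on npr1-1 SA arrays against 1.05 and 1.50 on Col-0 SA arrays, and the defensin gene LCR69 rose by 2.11. Class III peroxidases, which cross-link or loosen the wall and make apoplastic hydrogen peroxide, split as well, with 5 higher and 6 lower of 16. Prx37 was at 2.04 and 1.92 on npr1-1 SA arrays against 6.18 and 6.18 on Col-0 SA arrays, while AT1G71695 was at 4.61 and 4.96 against 2.38 and 2.51. AT1G14550 was lower under SA by 2.41 and in water by 4.29. In water 13 of the 16 peroxidase genes were lower in npr1-1 and none was higher, where over all 13350 genes 1428 (10.7%) were lower and 1752 (13.1%) higher in water.

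The 6 measured hypoxia genes, which mark low oxygen responses, were all lower on the npr1-1 SA arrays, with a median difference of −1.93. AT3G10040, a trihelix factor that restrains the response, was at 0.78 and 0.72 on npr1-1 SA arrays and between 0.77 and 0.98 in water, and it fell by 2.03 relative to the Col-0 SA arrays. AT4G10270, of the wound-responsive family, was at 1.70 and 1.85 on npr1-1 SA arrays against 4.62 and 4.51 on Col-0 SA arrays, and the universal stress protein gene AT3G03270 at 2.88 and 2.72 against 5.59 and 5.59. The median over the 6 genes was 2.20 and 2.28 on npr1-1 SA arrays, 4.44 and 4.24 on Col-0 SA arrays and between 2.01 and 2.60 on the water arrays, so the Col-0 SA arrays stood above the rest.

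All 8 measured heat shock genes were lower on the npr1-1 SA arrays, by 0.38 to 3.64. AT1G53540, a cytosolic small heat shock protein, was at 2.04 and 2.00 on npr1-1 SA arrays against 5.58 and 5.74 on Col-0 SA arrays, and Fes1A, an HSP70 cofactor, at 5.77 and 5.88 against 7.03 and 7.28. In water none of the 8 was lower in npr1-1 and 6 were higher, beside 10.7% lower and 13.1% higher over all genes. Of 6 genes of the ER secretory pathway, which NPR1 is known to induce for the export of defense proteins, 4 were lower and none was higher. BZIP60, a factor of the unfolded protein response, fell by 1.50 and the HSP40 gene ATERDJ3B by 1.13. BZIP28 fell by 0.45, a call that was lost in several alternatives, with an adjusted p of 0.0567 in limma under the replicate block, which left 3 of these 6 lower. Of 8 jasmonate genes 4 were lower and none was higher, with a median difference of −0.23. Among the 4, PDF1.2b was dim, between 0.72 and 1.25 on the SA arrays. Its call was lost in several alternatives, with an adjusted p of 0.0557 in limma with only the SA arrays. OPCL1, which activates jasmonate precursors, was at 3.37 and 3.42 on npr1-1 SA arrays against 5.52 and 5.15 on Col-0 SA arrays, and the factor gene MYC3 fell by 0.94. The defensin gene PDF1.2 was between 0.17 and 0.52 on the 4 arrays and did not pass the test.

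Photosynthesis genes moved the other way. Of 11 measured members 10 were higher on the npr1-1 SA arrays and none was lower, with a median difference of 1.51. PRK, the phosphoribulokinase of the Calvin cycle, was at 8.58 and 8.84 on npr1-1 SA arrays against 6.84 and 6.80 on Col-0 SA arrays, and at 8.02 and 7.83 in npr1-1 water against 8.47 and 8.42 in Col-0 water. The antenna gene LHCB4.2 rose by 1.65, the photosystem I gene PSAN by 1.51 and SBPASE, another Calvin cycle enzyme, by 1.54. LHCB4.3, which was dim at 1.20 to 1.33, did not pass. The median over the 11 genes was 8.93 and 8.96 on npr1-1 SA arrays, 7.59 and 7.48 on Col-0 SA arrays and between 8.42 and 8.78 in water, so the Col-0 SA arrays were the low group. In a list chosen after the values were seen, 7 of 9 genes of chlorophyll synthesis were also higher and none was lower. CHLI2, a magnesium chelatase subunit, was at 3.81 and 4.15 on npr1-1 SA arrays against 1.54 and 1.11 on Col-0 SA arrays, and the methyltransferase gene CHLM at 7.50 and 7.56 against 5.50 and 5.67. Of 69 genes that the chloroplast genome itself encodes, a group also formed afterwards, 40 were higher and 5 lower. Their median difference was 0.62, and 16 of the 69 were called with a difference of at least 1. The npr1-1 SA replicates differed, with list medians of 5.64 and 6.33, against 5.18 at most on Col-0 SA arrays. The RNA was labelled from an oligo(dT) primer, and how well this reads chloroplast transcripts was not tested. The Rubisco large subunit gene rbcL was at 6.51 and 6.64 on npr1-1 SA arrays against 4.82 and 5.18 on Col-0 SA arrays.

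**Figure D3:**
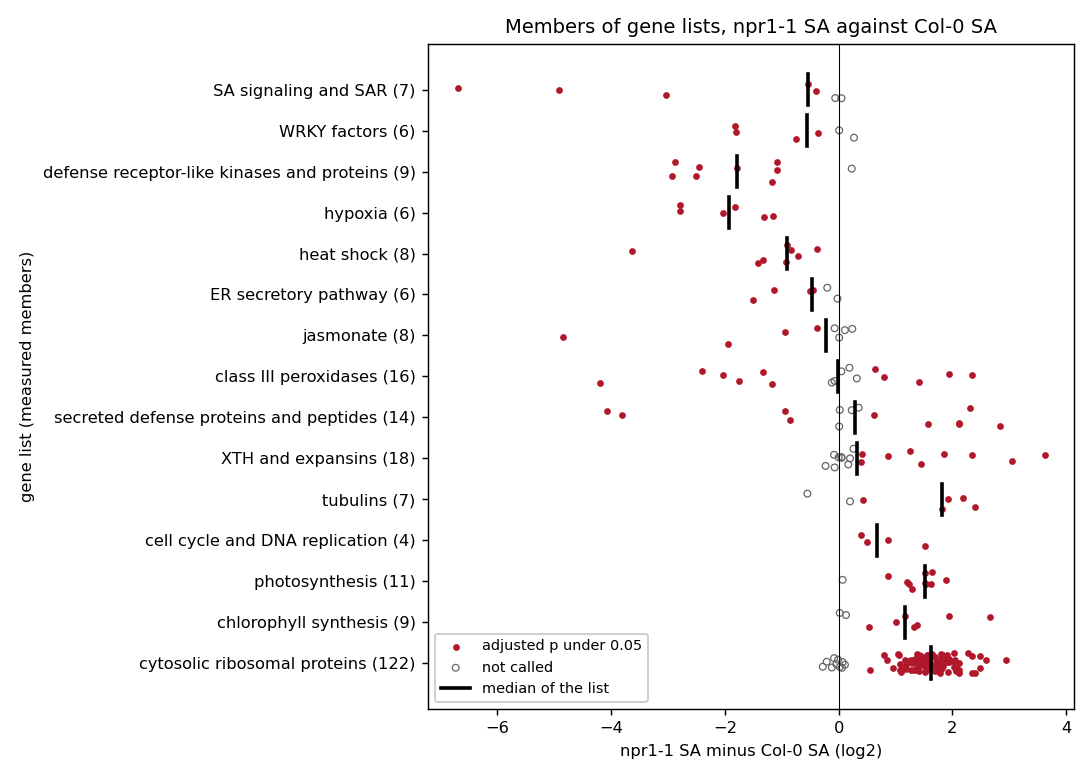
Differences between npr1-1 SA and Col-0 SA on the log2 scale for the measured members of 15 gene lists, with filled points past an adjusted p of 0.05 in limma, open points not past it, and a black line at the median of each list. All 6 hypoxia and all 8 heat shock genes lie below 0, and 10 of 11 photosynthesis and 112 of 122 ribosomal protein genes lie above 0 as called points.

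Cytosolic ribosomal proteins, a list chosen after the values were seen, formed the most uniform large group. Of 122 measured genes 112 (91.8%) were higher on the npr1-1 SA arrays and none was lower, with a median difference of 1.62. The 10 genes that did not pass were below 2 on all 4 arrays. After such centring, 112 were still called higher and 2 lower, at a median of 1.49. The median level of the 122 genes was 7.38 and 7.50 on npr1-1 SA arrays, 5.84 and 5.78 on Col-0 SA arrays, 6.64 and 6.62 on npr1-1 water arrays and 6.21 and 6.23 on Col-0 water arrays. In water 61 of the 122 were also called higher in npr1-1 and 1 lower, beside 13.1% and 10.7% over all genes. AT2G40010, a gene for the stalk protein of the large subunit, was above the dim range in npr1-1 SA seedlings alone, at 4.37 and 4.33, against 1.45 and 1.36 on Col-0 SA arrays and 1.26 to 1.46 in water. AT5G60670 was at 7.56 and 7.42 on npr1-1 SA arrays against 5.12 and 4.87 on Col-0 SA arrays. Ribosomal proteins are encoded by small families of near-identical genes, so that the probe sets of a family may share signal.

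Called genes of wall growth and division were all higher in npr1-1 under SA, although median centring left 7 XTH and expansin, 4 tubulin and 3 cell cycle genes called higher and turned 1 tubulin gene into a lower call. Of 18 measured XTH and expansin genes, which loosen the wall during growth, 9 were higher and none was lower under SA, while in water 2 were higher and 11 lower in npr1-1 (13.1% and 10.7% over all genes). XTH33 was at 4.04 and 4.25 on npr1-1 SA arrays against 1.13 and 1.09 on Col-0 SA arrays, and at 1.06 and 1.03 in npr1-1 water against 3.73 and 3.27 in Col-0 water. XTH32 was at 3.53 and 3.30 on npr1-1 SA arrays against 1.15 and 0.99 on Col-0 SA arrays, and EXLA2 rose by 1.86. Of 7 tubulin genes, listed after the values were seen, 5 were higher, among them TUB6 at 5.19 and 5.28 on npr1-1 SA arrays against 3.23 and 2.46 on Col-0 SA arrays. The 4 measured cell cycle genes were all higher but dim. PRL, a subunit of the replicative helicase, was at 2.67 and 2.47 on npr1-1 SA arrays against 1.10 and 1.02 on Col-0 SA arrays, and the Aurora kinase genes AUR1 and AUR2 rose by 0.87 and 0.49. PRL was also higher in npr1-1 in water, at 2.58 and 2.30 against 1.16 and 1.20 in Col-0, and its interaction was not called.

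Smaller groups gave single values. BCAT4, the entry enzyme of methionine-derived glucosinolates, was at 5.25 and 5.34 on npr1-1 SA arrays against 2.58 and 2.07 on Col-0 SA arrays, and AT2G31790, a glucosyltransferase of the same pathway, rose by 1.62. Glutathione transferases and ROS enzymes were divided, with 2 higher and 3 lower of 8. GSTU20 was at 6.16 and 6.28 on npr1-1 SA arrays against 3.48 and 3.42 on Col-0 SA arrays, while GSTU22 was at 2.41 and 2.30 against 4.12 and 3.87. Of 47 UGT glycosyltransferase genes, grouped by symbol after the values were seen, 5 were higher and 16 lower (34.0%). UGT87A2 was at 5.86 and 5.74 on npr1-1 SA arrays against 8.13 and 7.86 on Col-0 SA arrays. Grouped in the same way, 5 of 7 calmodulin-like (CML) genes and 6 of 9 U-box ubiquitin ligase (PUB) genes were lower, and no CML gene and 1 PUB gene were higher. In water 5 CML genes were lower and 2 higher, with a median difference of −1.33 against −1.06 under SA. Of the PUB genes, 3 were lower and 3 higher in water, beside 10.7% lower and 13.1% higher over all genes. PUB24 was at 1.08 and 0.81 on npr1-1 SA arrays against 3.24 and 3.57 on Col-0 SA arrays. Of the 14 SWEET transporter genes 2 were higher and 5 lower, and of 11 RALF-like peptide genes 3 were higher and 1 lower. RALFL34 was at 4.82 and 4.67 on npr1-1 SA arrays against 2.00 and 1.74 on Col-0 SA arrays. Of 6 auxin genes GH3.3 fell and IAA29 rose by 0.41, and of 5 ABA and dehydration genes COR47 rose by 1.42 and LTI30 fell by 0.47. Of 54 GDSL genes, listed after the values were seen, 14 were higher and 3 lower (12 and 9 with median centring), and of 20 beta-glucosidase (BGLU) genes, grouped by symbol in the same way, 2 were higher and 6 lower. Of 5 flavonoid and phenylpropanoid genes 2 were higher, and of 3 genes of branched-chain and nitrogen metabolism 2 were higher and 1 lower. The clock gene GI and the senescence gene SAG29 rose by 0.98 and 0.39, and the glucosinolate gene UGT74B1 and the sulfur deficiency gene BGLU28 fell by 1.07 and 1.19, each the single measured member of its list. Of 6 chromatin remodeling genes 1 passed, CHR23, which rose by 0.46, whereas with median centring none was called higher and 2 were called lower.

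The same genotype comparison in water, on arrays that the SA comparison does not share, was set beside that under SA. It rests on the treatment labels of the npr1-1 arrays, which need care, so treatment specificity was not settled. In water 6134 of the 22746 probe sets (27.0%) differed, 2896 of them lower and 3238 higher in npr1-1. Over all genes 10.7% were lower and 13.1% higher in water, the background for the shares that follow. The difference between the 2 genotype differences, which is the interaction of genotype and treatment, was past the threshold for 7274 probe sets (32.0%), and for 5817 of the 8945 probe sets called under SA. Over genes it was past the threshold for 3718 of 13350 (27.9%). Of the 4188 probe sets lower in npr1-1 under SA, 1199 (28.6%) were also lower in water, 895 (21.4%) were higher in water and 2094 were not called there. Of the 4757 higher under SA, 1162 (24.4%) were higher and 874 (18.4%) lower in water. Across the 22746 probe sets the 2 differences correlated at a Pearson r of 0.01 and a Spearman rho of 0.11, with genes not being independent replicates.

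**Figure D4:**
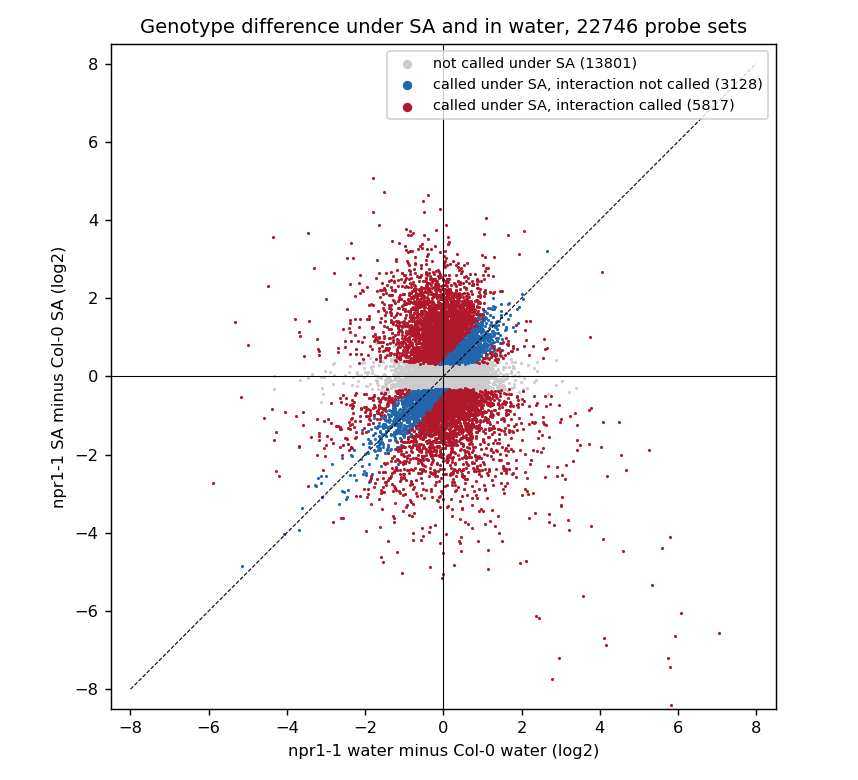
Genotype difference under SA (vertical axis, npr1-1 SA minus Col-0 SA, log2) against that in water (horizontal axis, npr1-1 water minus Col-0 water, log2), each point being 1 of 22746 probe sets and the dashed line marking equal differences. The 5817 red points were called under SA and in the interaction, the 3128 blue points under SA only, and the 13801 grey points were not called under SA.

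Examples of each class were picked by size after the values were seen. For 365 genes npr1-1 was called lower in both treatments with no call for the interaction, and for 409 genes it was called higher in both. Besides JRG21, CCOAMT, a caffeoyl-CoA methyltransferase family gene, was at 3.74 and 3.88 on npr1-1 SA arrays against 6.51 and 6.55 on Col-0 SA arrays, and at 3.01 and 3.01 in npr1-1 water against 6.13 and 6.17 in Col-0 water. BRH1, a brassinosteroid-responsive RING protein gene, was higher in both, at 4.32 and 4.38 on npr1-1 SA arrays against 2.78 and 2.23 on Col-0 SA arrays, and at 3.93 and 4.27 in npr1-1 water against 2.47 and 2.42 in Col-0 water. Opposite differences were led by AT3G28510, AT5G03350, AT1G19960 and UGT76B1 among the falls and by XTH33 among the rises. AT3G22240 belonged to the same class at high levels, with 7.47 and 7.24 on npr1-1 SA arrays against 11.42 and 11.17 on Col-0 SA arrays, and 10.92 and 11.09 in npr1-1 water against 7.87 and 7.72 in Col-0 water. A difference under SA with less than 0.2 in water was led by AT2G30660 and AT3G29970 among the falls. Among the rises, after AT3G16370 and AT3G50560, GH9B7, an endoglucanase gene, was at 5.16 and 4.96 on npr1-1 SA arrays against 2.09 and 1.97 on Col-0 SA arrays, and at 3.65 and 3.98 in npr1-1 water against 3.73 and 3.74 in Col-0 water.

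The study sorted genes into SI (SA induced) and SR (SA repressed) groups from SA-treated and control arrays, so these lists are not independent of the Col-0 SA arrays and their counts are a description. Of 50 measured SI genes of 111 listed, all 50 were lower on the npr1-1 SA arrays, by 0.75 to 6.70. Their median level was 1.91 and 1.76 on npr1-1 SA arrays, 5.39 and 5.14 on Col-0 SA arrays, 3.62 and 3.62 on npr1-1 water arrays and 2.14 and 2.14 on Col-0 water arrays. Of 49 measured SR genes of 104 listed, 43 were higher and 2 lower. Their median level was 4.61 and 4.86 on npr1-1 SA arrays, 2.58 and 2.51 on Col-0 SA arrays, 3.95 and 3.67 on npr1-1 water arrays and 5.19 and 4.99 on Col-0 water arrays. For both groups the npr1-1 SA arrays were close to the Col-0 water arrays, and the npr1-1 water arrays lay between these and the Col-0 SA arrays.

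**Figure D5:**
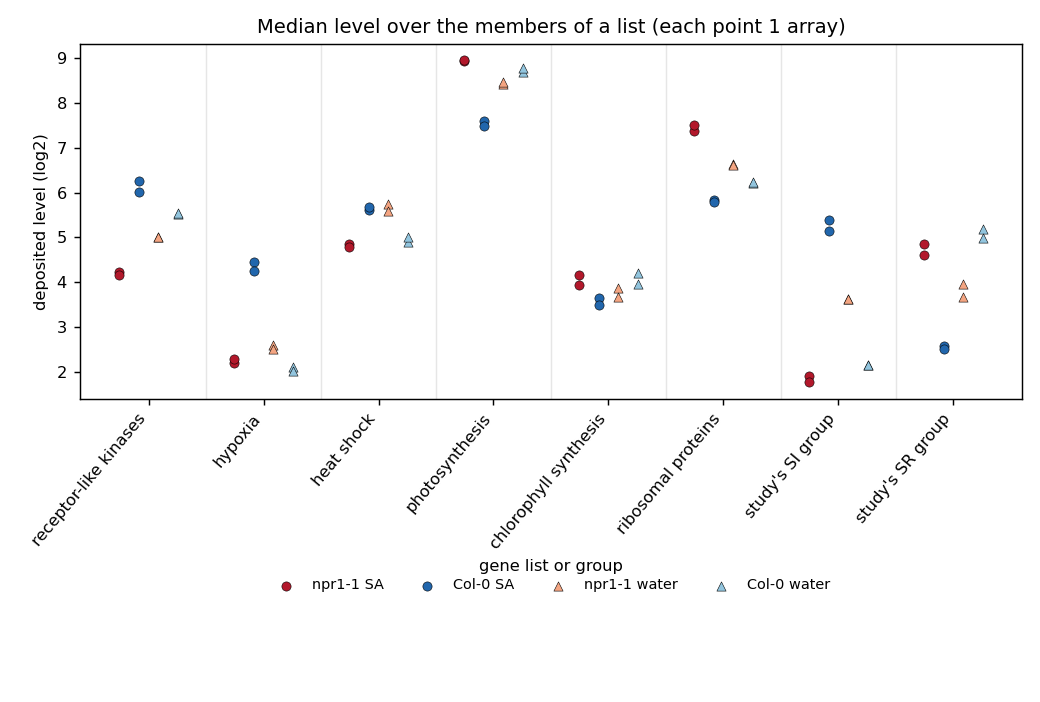
Median deposited log2 level over the measured members of 6 gene lists and of the SI and SR groups, each point being 1 array of npr1-1 SA, Col-0 SA, npr1-1 water or Col-0 water. The SI group is at 1.91 and 1.76 on npr1-1 SA arrays against 5.39 and 5.14 on Col-0 SA arrays, and the ribosomal protein list at 7.38 and 7.50 against 5.84 and 5.78.

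Of the 18 genes the study chose as representatives, 7 had a probe set with 1 symbol, and the others were not analysed here. The study formed its NPR1-dependent and NPR1-independent classes from these same arrays, so the calls are a description. GRX480 and AT5G38700 were chosen as NPR1-dependent, AT1G05700, MSRB9 and AT1G66100 as NPR1-independent, and AT4G23780 and AT3G26130 as silent genes. Besides GRX480, 4 of the 7 passed the test, where over all genes 19.1% were higher and 16.0% lower. AT5G38700 was at 2.46 and 2.45 on npr1-1 SA arrays against 1.45 and 1.19 on Col-0 SA arrays, and at 1.84 and 1.84 in npr1-1 water against 4.18 and 4.29 in Col-0 water. AT1G05700, a receptor-like kinase gene, was lower in npr1-1 in both treatments, by 2.50 under SA and by 2.05 in water. MSRB9, a methionine sulfoxide reductase gene, fell by 0.42 under SA, and the thionin gene AT1G66100 rose by 0.62. AT4G23780 and AT3G26130 were at 0.04 to 0.23 and at 0.05 to 0.15 on the 4 SA arrays and did not pass the test.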

How the data were processed

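Whole-seedling RNA of 8 ATH1 arrays was analysed from the log2 levels the authors deposited, which were background-corrected, normalized between arrays and summarised per probe set before deposit. The methods name RMA in affylmGUI and the submitters' processing notes Affymetrix Expression Console; versions are not given in the sources used here. Detection calls were not used here, so levels under 2 may be background and folds from them have no known floor. The number of arrays limits the precision, and each group mean rests on 2 arrays.

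Control probe sets (64) were left out. All 8 arrays were fitted by group with limma 3.58.1 (lmFit, contrasts.fit, eBayes) in R 4.3.3 (statmod 1.5.0 served the robust variance), with Benjamini-Hochberg adjustment over 22746 probe sets. Probe sets with 1 symbol (13513; 503 had several and 8730 none listed) were named through the platform annotation and the TAIR10.1 gene table, where 13436 matched, and a gene stood by its brightest probe set. Members and 29 gene lists (800 genes) were chosen with earlier results of these data known, and 4 further lists and 7 families after the values were seen. Of 8 word families, 5 had no match; 3 were counted, UDP-glycosyltransferases (6 higher, 16 lower of 45), cytochrome P450 (3 and 6 of 24) and glutaredoxins or thioredoxins (5 and 3 of 10). Named genes are the 12 largest rises and falls, up to 4 members of each list by adjusted p, and the study's representatives; others were chosen after their values were seen. Alternatives were a replicate block, only the SA arrays, quantile normalization, median centring, no dim probe sets, other variance settings, a stricter threshold, all probe sets per gene, and single arrays left out. Steps were tested on simulated data. Promoter motifs were not analysed here.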

Additional observations from a re-analysis of the deposited data

Results flagged for a closer look

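The genotype difference under SA departed from that in water for 7274 probe sets at an adjusted p of 0.05 for the interaction in limma. A negative interaction means that npr1-1 minus Col-0 was lower under SA than in water. Among the largest falls the interaction was −10.81 for UGT76B1, −12.55 for AT5G03350, −12.13 for AT3G28510 and −9.07 for AT1G19960, the genes with opposite genotype differences in the 2 treatments. It was −5.12 for AT2G30660, −5.03 for AT3G29970, −3.96 for AT3G13950 and −6.06 for GRX480. It was −4.52 for UGT73D1, −6.74 for GH3.3 and −4.51 for cwINV6, and for JRG21 it did not pass (0.29, adjusted p = 0.555 in limma).

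Among the largest rises the interaction was 5.04 for AT1G29660, 3.93 for AT3G16370, 4.43 for AT1G09310 and 4.11 for XTH16. It was 1.98 for AT5G55620, 4.52 for AT2G10940, 3.94 for AT3G48460 and 3.68 for AT5G12050. It was 4.07 for AT5G55220, 3.28 for AT3G50560, 1.20 for QQS and 3.51 for AT5G14410. Of the study's representative genes, AT5G38700 also passed, at 3.53.

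By list, the interaction was called for 6 of 7 SA signaling, 4 of 6 WRKY, 7 of 9 receptor-like kinase, 4 of 6 ER secretory and 3 of 8 jasmonate genes. It was called for 10 of 11 photosynthesis, 13 of 18 XTH and expansin, 6 of 8 glutathione transferase and 13 of 16 peroxidase genes. It was called for 5 of 6 hypoxia, 8 of 8 heat shock, 10 of 14 secreted defense, 2 of 6 auxin and 2 of 6 chromatin genes. In the groups formed after the values were seen it was called for 105 of 122 ribosomal protein, 16 of 54 GDSL, 7 of 9 chlorophyll synthesis, 4 of 7 tubulin, 20 of 47 UGT and 24 of 69 chloroplast-encoded genes. It was called for 4 of 7 CML, 4 of 9 PUB, 5 of 20 BGLU, 5 of 14 SWEET and 4 of 11 RALF-like genes. Over all genes the interaction was called for 3718 of 13350 (27.9%), and over all probe sets the share was 32.0%. Each of these values rests on the treatment labels of the npr1-1 arrays.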

How the results depend on the processing

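The count of 8945 probe sets between npr1-1 SA and Col-0 SA stayed within 1.5 times under every alternative run, from 6667 without moderation to 9905 with each array centred on its median, where 40.5% rather than 53.2% of the calls were higher. With the replicate number as a block it was 8753. The replicate differences of npr1-1 SA and Col-0 SA correlated at r = 0.08, the labels name no shared batch, and the numbers were not taken to pair the samples. Leaving out 1 array at a time gave 7585 to 8892 called probe sets, 4116 to 4727 higher, 3436 to 4165 lower and 3815 to 3934 with a difference of at least 1. Called members of the 29 gene lists numbered 106, and 88 without moderation. The lists and families formed after the values were seen, such as the ribosomal proteins, were not in that count. Probe sets called in the interaction numbered 4917 without moderation, against 7274. The count in water was 3607 without moderation, against 6134. Of 128 named genes called, 19 lost the call under at least 1 alternative, none of which differed by more than 1.00. Leaving out Col-0 SA replicate 1 gave adjusted p = 0.272 in limma for WRKY47, leaving out Col-0 SA replicate 2 gave 0.362 for BZIP28, 0.0838 for WES1 and 0.0704 for LTI30, and without npr1-1 SA replicate 1 it was 0.23 for MSRB9 and 0.108 for AUR2. Without npr1-1 SA replicate 2 it was 0.136 for IAA29, without Col-0 SA replicate 1 it was 0.0663 for CHR23 and 0.194 for SAG29, and without moderation 0.0962 for AUR1; the causes were not tested. AT4G23780, which did not pass the test (0.07), changed sign to −0.06 with median centring, and lay between −0.02 (without npr1-1 SA replicate 1) and 0.15 with 1 array left out.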
